A study of Homo sapiens with 24 samples.

Results

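The genes described here are 38 human genes of nucleotide excision, base excision, mismatch and translesion repair, with 1 gene of direct reversal, chosen by name from textbook roles out of the 57736 genes in the table. All 38 were found in the table, and 37 had enough counts to be tested. They were followed in U87-T cells, a derivative of the U87 glioblastoma cell line that carries a TERT transgene. Messenger RNA was counted from its 3′ ends (QuantSeq) in 24 libraries, in a DAXX series and an ATRX series of 12 libraries each. Each series had 4 groups of 3 libraries: WT untreated, WT with etoposide, knockout (KO) untreated and KO with etoposide. Etoposide is a topoisomerase II inhibitor that leaves DNA double-strand breaks, and its dose and time for these libraries are not stated in the sources used here. All groups thus share the TERT transgene and the U87 background, and the WT cells carry an empty Cas9 lentivirus vector. The DAXX_KO and ATRX_KO cells are each 1 clone, made with CRISPR from a single cell and selected after passage with features of alternative lengthening of telomeres (ALT), so a difference between KO and WT cannot be told apart from a difference between that clone and the WT cells. The 3 libraries of a group carry replicate numbers. The study describes its replicates in general as biological without saying how the cultures behind these libraries were kept apart, so p-values measure the spread between these libraries.

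Nucleotide excision repair removes bulky lesions. XPC with RAD23B, and the DDB1-DDB2 pair, recognise them, or ERCC6 and ERCC8 act where RNA polymerase has stalled. XPA and the helicases ERCC2 and ERCC3 verify and open the site, and ERCC1-ERCC4 and ERCC5 cut the strand on either side. Base excision repair starts with a glycosylase that removes a damaged base, after which APEX1 cuts the backbone, POLB fills the gap and LIG3 with XRCC1 seals it, while PARP1 and PARP2 mark the break. Mismatch repair proteins find mispaired bases left by replication, translesion polymerases copy past lesions, and MGMT removes alkyl groups directly. DDB2, XPC and POLH are known direct targets of p53, the transcription factor that DNA damage activates.

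The labels were checked on the targeted genes first. DAXX stood at 35.3, 33.5 and 32.9 CPM (counts scaled to a common library total) in the WT control libraries and at 6.25, 4.62 and 6.62 CPM in the KO control libraries of the DAXX series, a log2 fold change of −2.53 ± 0.15 (standard error; adjusted p = 7.34e-11). ATRX stood at 187, 193 and 196 CPM in the WT control and 87.5, 78.1 and 76.1 CPM in the KO control libraries of the ATRX series, a log2 fold change of −1.25 ± 0.090 (adjusted p = 9.38e-09). Each targeted mRNA was thus lower in its own KO line, while in the other line ATRX was higher in DAXX_KO (0.76 ± 0.069, adjusted p = 2.35e-08) and DAXX was higher in ATRX_KO (0.32 ± 0.093, adjusted p = 0.00997). One tag of the DAXX KO libraries names the other gene, so their titles were followed, and the DAXX counts match the titles. Library totals ran from 6928950 to 13298557 counts, and 3 counts were worth 0.226 to 0.433 CPM. Of the markers, VIM, CD44, FN1, TNC and NES were present in every library, and GFAP, a glial marker, had at most 3 counts in 23 of 24 libraries. CD3E of T cells and CDH5 of endothelium had at most 3 counts in all 24. Other listed markers were seen: CD68 of leukocytes had 174 to 453 counts in every library, PTPRC reached 17 and VWF 14. EPCAM of epithelium reached 27 counts and CDH1 10. SOX2 and OLIG2 of the glioma list had at most 3 counts in 11 and 10 libraries. The summed level of 3 neuronal genes (RBFOX3, SYP, MAP2) was 62.4 to 64.3 CPM in the DAXX KO control libraries. It was 9.21 to 13.7 CPM in their WT controls. MAP2 reached 58.6 CPM, while RBFOX3 and SYP stayed far below that summed KO level in every library. MAP2 thus made up most of it, and the sum does not show a shared rise of the 3 genes. The part of this difference in the results was not tested.

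Sequence around the starts of 5 members is shown first, namely DDB2, XPC and POLH, known p53 targets that rose under etoposide, and NEIL3 and MSH6, which fell. RefSeq windows of GRCh38.p14, from 250 bases before to 50 bases after a start, were matched by symbol for 35 of the 38 genes (51 windows). Matches to the p53 half-site, the decamer of which p53 binds a pair, were sought by name on both strands, and 6.632% of 35116 windows hold at least 1. A pair of half-sites 0 to 13 bases apart occurs in 10 of the 35116 windows, and the only member among them is DDB2. The DDB2 site lies at chr11:47214977-47215001 on the forward strand of GRCh38.p14, just after the start at 47214974, with the half-sites, counted from the start as +1, at +6 to +15 and +17 to +26 and 1 base between them, in capitals here.
DDB2 site: ttGAACAAGCCCtGGGCATGTTTgg

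The 250 bases before the start of XPC and POLH, known p53 targets that rose, and of NEIL3 and MSH6, which fell, are given for comparison (XPC chr3:14178602-14178851, reverse strand; POLH chr6:43575935-43576184, forward strand; NEIL3 chr4:177309624-177309873, forward strand; MSH6, the first of its 4 windows, chr2:47782895-47783144, forward strand; all GRCh38.p14). Capitals mark matches, on either strand, to a GC box (the letters GGGCGG), to a CCAAT box or to an E2F-type site (TTTCCCGC or TTTGGCGC), and no p53 half-site match lies in these 4 stretches.
XPC: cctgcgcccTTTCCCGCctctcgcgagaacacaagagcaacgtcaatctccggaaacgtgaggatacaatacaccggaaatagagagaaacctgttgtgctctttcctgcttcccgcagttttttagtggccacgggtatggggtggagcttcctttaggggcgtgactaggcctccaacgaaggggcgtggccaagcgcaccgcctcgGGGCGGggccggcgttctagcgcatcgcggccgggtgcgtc
POLH: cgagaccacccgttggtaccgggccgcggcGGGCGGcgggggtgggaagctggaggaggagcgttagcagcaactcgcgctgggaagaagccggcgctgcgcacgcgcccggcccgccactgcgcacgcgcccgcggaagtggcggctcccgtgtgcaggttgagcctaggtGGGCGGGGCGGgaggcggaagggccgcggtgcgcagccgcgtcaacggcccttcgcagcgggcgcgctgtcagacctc
NEIL3: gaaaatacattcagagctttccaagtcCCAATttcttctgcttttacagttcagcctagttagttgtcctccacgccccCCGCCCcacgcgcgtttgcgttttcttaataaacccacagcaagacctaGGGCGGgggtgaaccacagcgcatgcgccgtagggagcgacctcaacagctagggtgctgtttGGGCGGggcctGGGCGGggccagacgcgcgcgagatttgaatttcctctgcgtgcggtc
MSH6: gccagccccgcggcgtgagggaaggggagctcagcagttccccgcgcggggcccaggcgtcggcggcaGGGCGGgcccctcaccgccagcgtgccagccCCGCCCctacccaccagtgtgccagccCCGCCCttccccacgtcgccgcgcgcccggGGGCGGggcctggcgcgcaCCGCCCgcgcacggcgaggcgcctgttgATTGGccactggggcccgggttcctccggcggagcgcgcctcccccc
Over all members, a GC box was found in 39 of 51 windows, from 30 of 35 genes (44.95% of all windows hold one), and a CCAAT box in 20 of 51 windows, from 17 of 35 genes (34.61% of all windows). TTTCCCGC occurs in 1.629% of all windows and in those of MSH6, XPC, REV3L and POLI, and TTTGGCGC in 0.6521% and in that of MSH3. Of the p53 half-site, the windows of DDB2 and UNG hold a match, that of UNG without a second one near it. A match describes the letters in a window and does not show that a factor binds there.

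In WT cells, etoposide raised 3 of the 4 genes that recognise bulky lesions and the translesion polymerase POLH, and lowered 6 of 10 glycosylases, the strand-break markers PARP1 and PARP2 and the mismatch recognition genes. In the DAXX series 11 of 37 members rose and 17 fell (median log2 fold change −0.25), where 29.6% of all genes tested rose and 30.6% fell. In the ATRX series 11 rose and 17 fell (median −0.25), against 31.7% and 29.8% of all genes tested. In each series 29.7% of the members rose, close to the share of all genes, and 45.9% fell, above it. The series share no library, but the paper names the same U87-T control cells for both knockouts. The 28 members called in each overlap in 26, which is 92.9% of either list: 11 rose in both, 15 fell in both and 0 moved in opposite directions. Overlaps of calls between the series over all genes are not given, here or below. The overlaps of the members therefore cannot be set against those of all genes. ERCC2 and MUTYH passed the test as lower in the DAXX series and not in the ATRX series, and XPA (−0.25 in both series) and MPG did so the other way round, with no test of the difference between the series, and 7 were called in neither (ERCC8, ERCC3, ERCC5, NEIL1, PMS2, POLK, POLI). In these bulk libraries, fewer cells that hold a transcript and less of it per cell cannot be told apart.

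**Figure D1:**
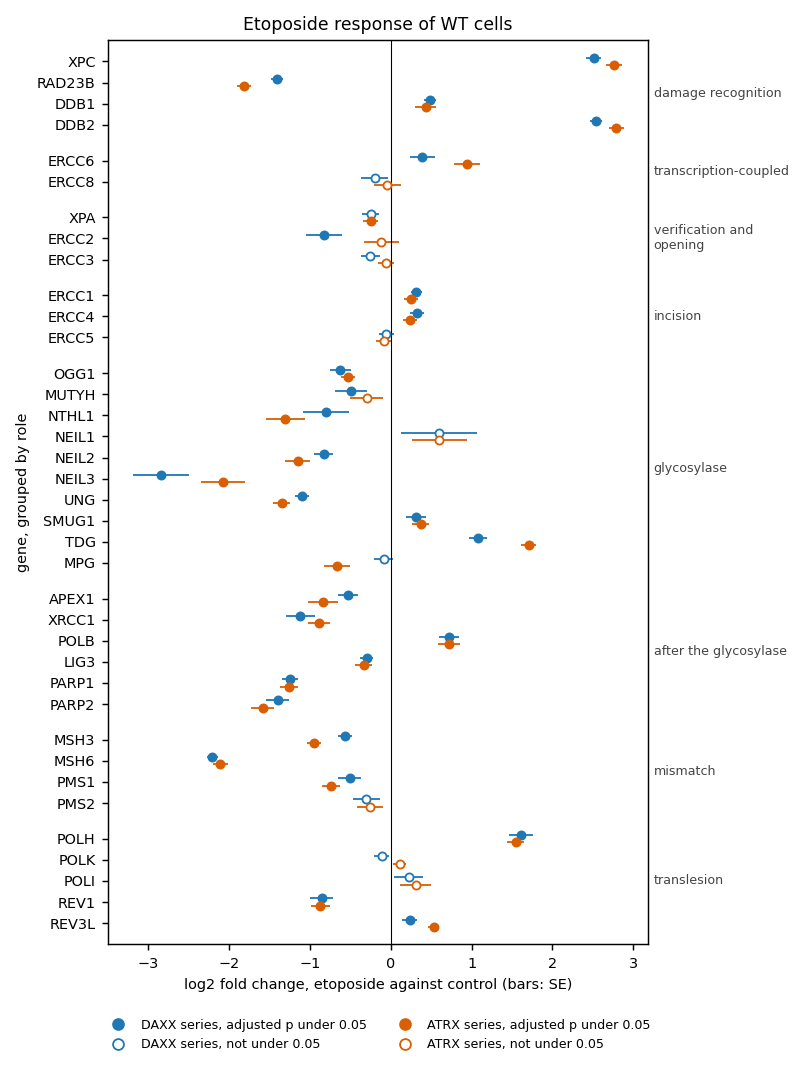
Log2 fold change of etoposide over control in WT cells for the 37 tested members, arranged by role, in the DAXX and ATRX series (points, with bars of 1 standard error). XPC, DDB2 and POLH stand above 1.5 in both series, and NEIL3 and MSH6 stand below −2 in both.

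Of the 4 recognition genes of nucleotide excision repair, 3 rose and 1 fell in both series. XPC (ENSG00000154767, chr3:14186647-14220121 on the reverse strand, GRCh37) is the lesion sensor of global repair. XPC stood at 44.3, 43.7 and 57.2 CPM in the WT control libraries and at 271, 285 and 267 CPM in the WT etoposide libraries of the DAXX series, a log2 fold change of 2.51 ± 0.092 (adjusted p = 1.67e-14). XPC in the ATRX series rose from 39.0, 37.3 and 37.2 CPM to 241, 256 and 276 CPM, a log2 fold change of 2.77 ± 0.10 (adjusted p = 4.98e-13). DDB2 (ENSG00000134574, chr11:47236016-47260768 on the forward strand), which binds ultraviolet damage in chromatin, rose by a like amount. DDB2 stood at 80.2, 74.9 and 68.7 CPM in the WT control libraries and at 439, 451 and 408 CPM in the WT etoposide libraries of the DAXX series, a log2 fold change of 2.53 ± 0.073 (adjusted p = 5.32e-16). DDB2 in the ATRX series rose from 69.9, 76.7 and 78.0 CPM to 499, 530.1 and 525 CPM, a log2 fold change of 2.79 ± 0.088 (adjusted p = 1.03e-13). For both genes every etoposide library lay above every control library. DDB1, the partner of DDB2, rose less, by 0.49 ± 0.071 (adjusted p = 7.65e-06) and 0.43 ± 0.13 (adjusted p = 0.00744). RAD23B, which stabilises XPC, went the other way. RAD23B stood at 235, 219 and 215 CPM in the WT control libraries and at 88.6, 79.9 and 84.1 CPM in the WT etoposide libraries of the DAXX series, a log2 fold change of −1.41 ± 0.072 (adjusted p = 2.56e-12). RAD23B in the ATRX series fell from 299.9, 275 and 280.0 CPM to 81.9, 78.5 and 82.5 CPM, a log2 fold change of −1.81 ± 0.084 (adjusted p = 1.13e-11). Its treated libraries all lay below its controls, so the binding partners XPC and RAD23B moved in opposite directions.

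**Figure D2:**
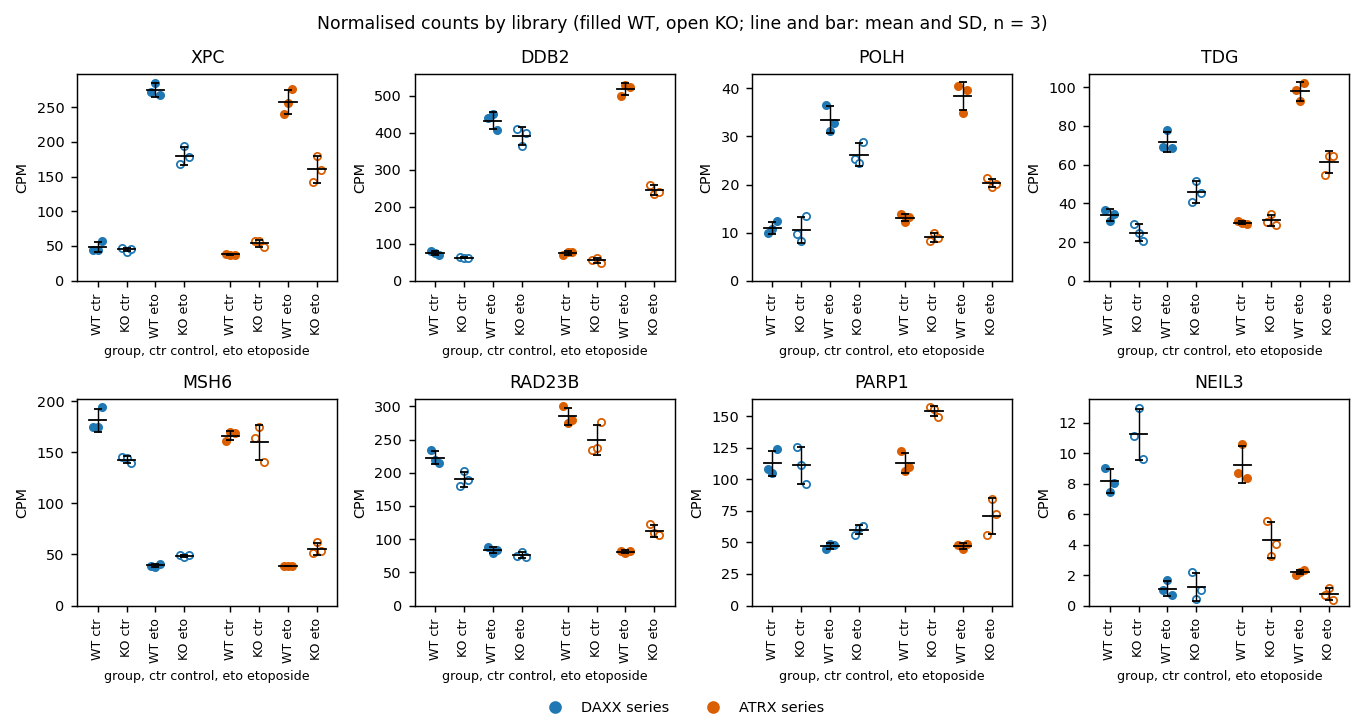
CPM in each of the 24 libraries for 8 members (linear axes from 0, points for libraries, bars for the mean ± SD of 3 libraries). XPC, DDB2, POLH and TDG are higher and MSH6, RAD23B, PARP1 and NEIL3 lower in the etoposide libraries of each WT pair.

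The genes acting after recognition moved less than XPC, DDB2 and RAD23B. ERCC6, which couples repair to transcription, rose in both series. ERCC6 stood at 10.4, 12.1 and 10.3 CPM in the WT control libraries and at 13.7, 12.7 and 16.7 CPM in the WT etoposide libraries of the DAXX series, a log2 fold change of 0.39 ± 0.15 (adjusted p = 0.0328). ERCC6 in the ATRX series rose from 8.48, 9.25 and 7.54 CPM to 15.1, 14.1 and 19.5 CPM, a log2 fold change of 0.94 ± 0.16 (adjusted p = 5.91e-05). ERCC1, the non-catalytic partner of the 5′ nuclease, also rose. ERCC1 stood at 105, 105 and 104 CPM in the WT control libraries and at 134, 129.9 and 128 CPM in the WT etoposide libraries of the DAXX series, a log2 fold change of 0.32 ± 0.065 (adjusted p = 2.93e-04). ERCC1 in the ATRX series rose from 124, 116 and 131 CPM to 154, 149.8 and 139 CPM, a log2 fold change of 0.25 ± 0.084 (adjusted p = 0.0148). ERCC4, the nuclease itself, rose by a similar amount. ERCC4 stood at 58.0, 69.2 and 58.5 CPM in the WT control libraries and at 82.1, 72.4 and 78.2 CPM in the WT etoposide libraries of the DAXX series, a log2 fold change of 0.33 ± 0.088 (adjusted p = 0.00332). ERCC4 in the ATRX series rose from 70.5, 65.7 and 75.1 CPM to 87.6, 79.8 and 81.4 CPM, a log2 fold change of 0.24 ± 0.084 (adjusted p = 0.0226). These 3 changes are small beside those of XPC and DDB2. Of the helicases, ERCC2 fell in the DAXX series (−0.83 ± 0.22, adjusted p = 0.00292) and stood at −0.12 ± 0.22 (adjusted p = 0.661) in the ATRX series. ERCC3 stood at −0.25 and −0.06, ERCC8 at −0.20 and −0.04 and ERCC5 at −0.06 and −0.08, none called. XPA stood at −0.25 ± 0.11 (adjusted p = 0.0514) and, in the ATRX series, fell by 0.25 (adjusted p = 0.0319).

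Of the 10 glycosylases, 2 rose and 6 fell in each series. NEIL3, a glycosylase of dividing cells, had the largest fall of all members in the DAXX series and the second largest in the ATRX series. NEIL3 stood at 9.02, 7.48 and 8.05 CPM in the WT control libraries and at 1.00, 1.67 and 0.675 CPM in the WT etoposide libraries of the DAXX series, a log2 fold change of −2.84 ± 0.35 (adjusted p = 8.05e-07). NEIL3 in the ATRX series fell from 8.71, 10.6 and 8.38 CPM to 2.03, 2.20 and 2.31 CPM, a log2 fold change of −2.08 ± 0.27 (adjusted p = 4.02e-06). Its counts are low after treatment, and the groups did not overlap. TDG, which removes thymine and uracil opposite guanine and oxidised methylcytosine, went up. TDG stood at 36.4, 30.7 and 34.7 CPM in the WT control libraries and at 68.9, 77.8 and 68.6 CPM in the WT etoposide libraries of the DAXX series, a log2 fold change of 1.08 ± 0.11 (adjusted p = 8.79e-08). TDG in the ATRX series rose from 30.7, 29.6 and 29.6 CPM to 98.4, 92.7 and 102 CPM, a log2 fold change of 1.71 ± 0.090 (adjusted p = 6.44e-11). SMUG1, a uracil glycosylase, rose by 0.31 ± 0.13 (adjusted p = 0.0393) and 0.37 ± 0.10 (adjusted p = 0.00522), while UNG, the main uracil glycosylase of replicating DNA, fell by 1.09 (adjusted p = 1.42e-09) and 1.35 (adjusted p = 5.87e-09). Among the enzymes for oxidised bases, OGG1 (−0.62 and −0.53), NTHL1 (−0.80 and −1.30) and NEIL2 (−0.83 and −1.15) fell in the DAXX and ATRX series, and NEIL1 stood at 0.59 and 0.60, called in neither. MUTYH, which removes adenine opposite oxidised guanine, stood at −0.49 ± 0.20 (adjusted p = 0.0379) and −0.30 ± 0.20 (adjusted p = 0.211). MPG, for alkylated bases, stood at −0.09 ± 0.12 (adjusted p = 0.552) and −0.66 ± 0.16 (adjusted p = 0.00168).

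Of the 6 genes acting after the glycosylase, 1 rose and 5 fell in each series. PARP2, a sensor of strand breaks, fell furthest. PARP2 stood at 29.9, 25.8 and 23.2 CPM in the WT control libraries and at 8.28, 11.8 and 9.86 CPM in the WT etoposide libraries of the DAXX series, a log2 fold change of −1.40 ± 0.14 (adjusted p = 5.01e-08). PARP2 in the ATRX series fell from 26.0, 27.0 and 27.5 CPM to 6.57, 11.1 and 9.23 CPM, a log2 fold change of −1.58 ± 0.15 (adjusted p = 6.35e-08). PARP1, the more abundant sensor protein in most cells, fell as well. PARP1 stood at 108, 105 and 124 CPM in the WT control libraries and at 44.7, 49.2 and 48.3 CPM in the WT etoposide libraries of the DAXX series, a log2 fold change of −1.25 ± 0.10 (adjusted p = 1.19e-09). PARP1 in the ATRX series fell from 122, 107 and 109.8 CPM to 47.8, 44.7 and 49.0 CPM, a log2 fold change of −1.26 ± 0.11 (adjusted p = 5.67e-08). For both, all treated libraries lay below all controls. XRCC1, the scaffold, stood at −1.12 and −0.89, APEX1 at −0.52 and −0.84 and LIG3 at −0.30 and −0.33, each called lower in both series. POLB, the gap-filling polymerase, rose by 0.72 ± 0.12 (adjusted p = 5.15e-05) and 0.72 ± 0.14 (adjusted p = 2.19e-04).

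Of the 4 mismatch repair members, 3 fell and 0 rose in both series. MSH6 (ENSG00000116062, chr2:47922669-48037202 on the forward strand), which recognises single mismatches and whose upstream sequence is printed here, fell furthest. MSH6 stood at 175, 174 and 194 CPM in the WT control libraries and at 39.0, 38.1 and 40.9 CPM in the WT etoposide libraries of the DAXX series, a log2 fold change of −2.20 ± 0.072 (adjusted p = 3.04e-15). MSH6 in the ATRX series fell from 161, 169 and 169 CPM to 39.0, 38.3 and 38.4 CPM, a log2 fold change of −2.11 ± 0.094 (adjusted p = 7.08e-12). MSH3, which recognises larger loops, fell less. MSH3 stood at 52.0, 53.4 and 50.8 CPM in the WT control libraries and at 33.5, 34.3 and 38.2 CPM in the WT etoposide libraries of the DAXX series, a log2 fold change of −0.56 ± 0.087 (adjusted p = 1.43e-05). MSH3 in the ATRX series fell from 59.6, 57.0 and 56.1 CPM to 29.6, 27.3 and 32.6 CPM, a log2 fold change of −0.95 ± 0.087 (adjusted p = 6.40e-08). In both genes the groups did not overlap. PMS1 also fell (−0.51 and −0.73), and PMS2, an endonuclease subunit, stood at −0.30 and −0.26, called in neither. PMS2 shares reads with near-identical copies such as PMS2CL, so its counts are uncertain. The last 500 bases of MSH6 all overlap FBXO11 on the opposite strand, and the strand used in counting is not stated, so their reads cannot be told apart. FBXO11 itself stood at −0.77 and −0.79.

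Of the 5 translesion genes, 2 rose and 1 fell in each series. POLH (ENSG00000170734, chr6:43543922-43588260 on the forward strand), the polymerase that copies past ultraviolet dimers, rose with XPC and DDB2. POLH stood at 9.91, 10.7 and 12.4 CPM in the WT control libraries and at 36.5, 31.1 and 32.8 CPM in the WT etoposide libraries of the DAXX series, a log2 fold change of 1.61 ± 0.14 (adjusted p = 9.18e-09). POLH in the ATRX series rose from 13.8, 12.3 and 13.2 CPM to 40.4, 35.0 and 39.6 CPM, a log2 fold change of 1.55 ± 0.11 (adjusted p = 1.71e-09). Every treated library lay above every control. REV1, the scaffold that recruits the other translesion polymerases, fell. REV1 stood at 23.7, 21.1 and 21.0 CPM in the WT control libraries and at 13.8, 11.2 and 11.5 CPM in the WT etoposide libraries of the DAXX series, a log2 fold change of −0.85 ± 0.14 (adjusted p = 3.61e-05). REV1 in the ATRX series fell from 23.95, 23.004 and 22.6 CPM to 12.1, 14.6 and 11.3 CPM, a log2 fold change of −0.87 ± 0.12 (adjusted p = 5.89e-06). The last 500 bases of REV1 all overlap EIF5B on the opposite strand, which stood at −0.44 and −0.43. The same holds for LIG3 with RFFL (−0.75 and −0.89), NEIL1 with MAN2C1 (0.55 and 0.53) and SMUG1 with FLJ12825, and part of the last 500 bases of MPG, OGG1, XPC, APEX1 and POLH overlaps a gene on the opposite strand, so reads there cannot be told apart. For POLH it is 257 bases shared with GTPBP2, which stood at 0.53 (adjusted p = 0.04) and 0.08 (adjusted p = 0.788). REV3L, the catalytic subunit of polymerase zeta, rose by 0.23 ± 0.090 (adjusted p = 0.0316) and 0.53 ± 0.071 (adjusted p = 5.45e-06). POLK (−0.11 and 0.11) and POLI (0.22 and 0.31) were called in neither. MGMT, the gene of direct reversal, was not tested: it had 0 counts in all 6 WT control libraries and at most 5 counts (0.518 CPM) in any library.

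With 1 library of the DAXX series left out in turn (named by group and replicate number), the calls of REV3L without WT control 1 or 2, WT etoposide 1 or 3 (highest adjusted p = 0.205), NTHL1 without WT control 1 or 2, WT etoposide 1 (highest adjusted p = 0.0751), SMUG1 without WT control 3, WT etoposide 1 or 3 (highest adjusted p = 0.238), MUTYH without WT control 1 or 3, WT etoposide 1 or 2 or 3 (highest adjusted p = 0.106) and ERCC6 without WT control 1 or 3, WT etoposide 3 (highest adjusted p = 0.185) were lost. In the ATRX series the calls of LIG3 without WT etoposide 1 (highest adjusted p = 0.0512), ERCC1 without WT control 2, WT etoposide 1 or 2 (highest adjusted p = 0.091), XPA without WT control 1 or 3, WT etoposide 2 or 3 (highest adjusted p = 0.105), DDB1 without WT etoposide 2 (highest adjusted p = 0.0526) and ERCC4 without WT control 1 or 2, WT etoposide 1 or 3 (highest adjusted p = 0.139) were lost. Another choice of filter, scaling or test ended the calls of MUTYH (DAXX series, DESeq2, no filter and 10 counts in every library, highest adjusted p = 0.109), REV3L (DAXX series, no filter, adjusted p = 0.0635), SMUG1 (DAXX series, no filter, adjusted p = 0.0814), ERCC6 (DAXX series, no filter, adjusted p = 0.0596), XPA (ATRX series, library totals alone and 10 counts in every library, highest adjusted p = 0.109), ERCC1 (ATRX series, no filter, adjusted p = 0.0571) and ERCC4 (ATRX series, no filter, adjusted p = 0.111). The 12 p53 targets listed outside the members all rose in both series (median log2 fold change 4.10 and 4.17), with a summed level of 495 to 506 CPM in the control and 12571 to 12768 CPM in the treated WT libraries of the DAXX series. All 14 proliferation genes fell (medians −2.75 and −2.46). Among all genes tested, 29.6% rose and 30.6% fell in the DAXX series, and 31.7% and 29.8% in the ATRX series. The part of p53 or of proliferation in the members' changes was not tested.

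Without etoposide, the KO lines had less ERCC1, APEX1, PMS1, MUTYH and DDB2 than WT, and differed from each other in ERCC5, MSH3 and NEIL2. In DAXX_KO, 4 of 37 members were higher and 13 lower than in WT (median −0.10; 26.7% and 26.6% of all genes), a split of 10 higher and 8 lower when libraries were scaled by their totals alone, which moves the median of all genes by 0.18. In ATRX_KO, 9 were higher and 10 lower (median −0.06; 20.8% and 21.0%). Of the 17 members called in DAXX_KO and the 19 in ATRX_KO, 9 were called in both, which is 52.9% and 47.4% of the lists. SMUG1 was higher in both, DDB2, ERCC1, MUTYH, APEX1 and PMS1 were lower in both, and 3 moved in opposite directions: NEIL2 and POLB were higher in DAXX_KO and lower in ATRX_KO, and MSH3 was lower in DAXX_KO and higher in ATRX_KO. A total of 8 were called in DAXX_KO alone (RAD23B, ERCC8, TDG, LIG3, PARP2, MSH6, PMS2, POLK), 10 in ATRX_KO alone (XPC, DDB1, ERCC6, ERCC5, NTHL1, NEIL3, PARP1, POLH, REV1, REV3L) and 10 in neither.

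**Figure D3:**
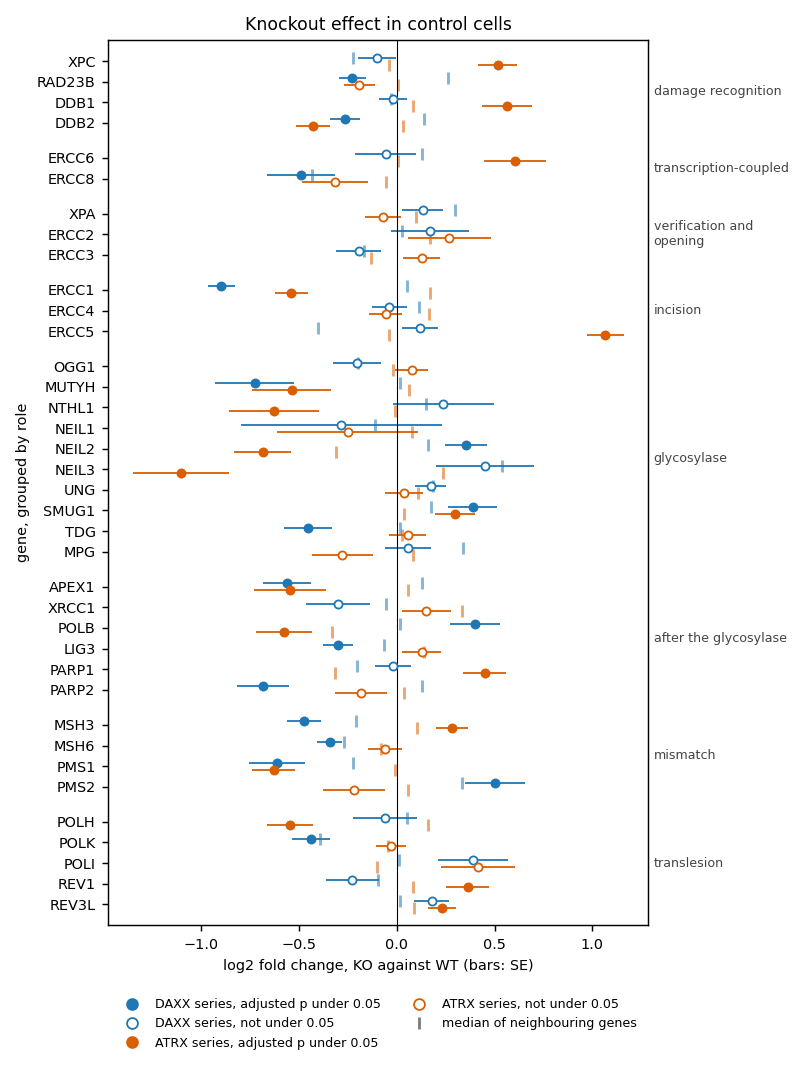
Log2 fold change of KO over WT in untreated cells for the 37 tested members in the DAXX and ATRX series (points, with bars of 1 standard error), with ticks at the median of up to 60 neighbouring tested genes on the chromosome. ERCC1 lies below 0 in both lines and away from its ticks, whereas ERCC8 and POLK of DAXX_KO lie near theirs.

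ERCC1, of the 5′ nuclease, had the largest decrease of the members in DAXX_KO. ERCC1 stood at 105, 105 and 104 CPM in the WT control libraries and at 57.1, 56.1 and 55.6 CPM in the KO control libraries of the DAXX series, a log2 fold change of −0.90 ± 0.068 (adjusted p = 1.74e-09). ERCC1 in the ATRX series was lower in KO, at 75.2, 86.5 and 93.8 CPM against 124, 116 and 131 CPM in WT, a log2 fold change of −0.54 ± 0.085 (adjusted p = 6.85e-05). The KO libraries all lay below the WT libraries in both series. DDB2 was lower before any drug was given. DDB2 stood at 80.2, 74.9 and 68.7 CPM in the WT control libraries and at 63.6, 61.4 and 61.6 CPM in the KO control libraries of the DAXX series, a log2 fold change of −0.26 ± 0.076 (adjusted p = 0.00635). DDB2 in the ATRX series was lower in KO, at 56.6, 61.6 and 48.7 CPM against 69.9, 76.7 and 78.0 CPM in WT, a log2 fold change of −0.43 ± 0.087 (adjusted p = 7.59e-04). Its difference is small beside its etoposide response. MUTYH counts are low. MUTYH stood at 7.53, 6.33 and 7.81 CPM in the WT control libraries and at 4.998, 4.49 and 3.61 CPM in the KO control libraries of the DAXX series, a log2 fold change of −0.73 ± 0.20 (adjusted p = 0.0048). MUTYH in the ATRX series was lower in KO, at 4.35, 6.94 and 5.40 CPM against 9.57, 6.62 and 8.05 CPM in WT, a log2 fold change of −0.54 ± 0.20 (adjusted p = 0.0423). APEX1, the main abasic site nuclease, had a wider spread between libraries. APEX1 stood at 60.4, 47.3 and 50.6 CPM in the WT control libraries and at 34.6, 36.3 and 36.3 CPM in the KO control libraries of the DAXX series, a log2 fold change of −0.56 ± 0.12 (adjusted p = 6.65e-04). APEX1 in the ATRX series was lower in KO, at 41.0, 39.7 and 67.6 CPM against 80.7, 64.9 and 71.6 CPM in WT, a log2 fold change of −0.55 ± 0.18 (adjusted p = 0.0243). The APEX1 libraries of ATRX_KO and WT overlapped. PMS1, a mismatch repair protein, was lower. PMS1 stood at 24.3, 23.4 and 19.8 CPM in the WT control libraries and at 14.0, 14.0 and 16.1 CPM in the KO control libraries of the DAXX series, a log2 fold change of −0.61 ± 0.14 (adjusted p = 0.00112). PMS1 in the ATRX series was lower in KO, at 14.6, 15.4 and 17.2 CPM against 24.8, 22.3 and 25.9 CPM in WT, a log2 fold change of −0.63 ± 0.11 (adjusted p = 2.02e-04).

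SMUG1 was the only member called higher in both lines, and POLI stood at 0.39 and 0.41 without passing the test. SMUG1 stood at 18.0, 17.3 and 12.97 CPM in the WT control libraries and at 21.5, 21.5 and 20.5 CPM in the KO control libraries of the DAXX series, a log2 fold change of 0.39 ± 0.13 (adjusted p = 0.0133). SMUG1 in the ATRX series was higher in KO, at 19.4, 19.2 and 19.5 CPM against 14.9, 16.7 and 15.7 CPM in WT, a log2 fold change of 0.30 ± 0.10 (adjusted p = 0.0295). Its differences are small. FAM242C, on the same strand, shares 179 of the last 500 bases of SMUG1. FAM242C stood at −2.16 (adjusted p = 0.00185) in DAXX_KO, with 10 to 22 counts in WT control and 2 to 4 in KO control libraries. In ATRX_KO it stood at 0.54 (adjusted p = 0.353). The part of shared reads in the SMUG1 values was not tested. Of the members that moved in opposite directions, MSH3 was lower in one line and higher in the other. MSH3 stood at 52.0, 53.4 and 50.8 CPM in the WT control libraries and at 37.6, 40.1 and 34.7 CPM in the KO control libraries of the DAXX series, a log2 fold change of −0.48 ± 0.086 (adjusted p = 1.06e-04). MSH3 in the ATRX series was higher in KO, at 65.8, 69.4 and 74.8 CPM against 59.6, 57.0 and 56.1 CPM in WT, a log2 fold change of 0.28 ± 0.083 (adjusted p = 0.0111). NEIL2, a glycosylase for oxidised bases, did the reverse. NEIL2 stood at 45.2, 46.9 and 51.3 CPM in the WT control libraries and at 67.0, 63.6 and 52.7 CPM in the KO control libraries of the DAXX series, a log2 fold change of 0.36 ± 0.11 (adjusted p = 0.00907). NEIL2 in the ATRX series was lower in KO, at 28.1, 29.0 and 22.8 CPM against 41.1, 44.3 and 43.2 CPM in WT, a log2 fold change of −0.69 ± 0.14 (adjusted p = 9.89e-04). POLB was higher in DAXX_KO (0.40 ± 0.13, adjusted p = 0.0118) but lower in ATRX_KO (−0.58 ± 0.15, adjusted p = 0.00408). ERCC5, the 3′ nuclease, was called in ATRX_KO alone. ERCC5 stood at 56.7, 50.7 and 60.1 CPM in the WT control libraries and at 62.2, 62.0 and 57.4 CPM in the KO control libraries of the DAXX series, a log2 fold change of 0.12 ± 0.091 (adjusted p = 0.297). ERCC5 in the ATRX series was higher in KO, at 105, 124 and 97.8 CPM against 50.8, 52.5 and 52.8 CPM in WT, a log2 fold change of 1.07 ± 0.093 (adjusted p = 9.51e-08). The ATRX_KO libraries of ERCC5 all lay above their WT libraries. The read-through gene BIVM-ERCC5, which shares its last exons, had 0 counts in all 24 libraries.

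Among the recognition and translesion genes, ATRX_KO had more XPC (0.51 ± 0.10, adjusted p = 4.63e-04) and less POLH (−0.55 ± 0.12, adjusted p = 0.00118) than WT, while DAXX_KO stood at −0.10 ± 0.10 (adjusted p = 0.406) and −0.06 ± 0.16 (adjusted p = 0.787). XPC read 39.0, 37.3 and 37.2 CPM in the WT control and 57.1, 56.7 and 48.4 CPM in the KO control libraries of the ATRX series, and POLH read 13.8, 12.3 and 13.2 and 8.18, 9.87 and 8.90 CPM. The p53 target members thus did not share a direction in ATRX_KO. NEIL3 stood at −1.10 ± 0.25 (adjusted p = 0.00163) in ATRX_KO and 0.45 ± 0.25 (adjusted p = 0.144) in DAXX_KO. Other members of ATRX_KO were ERCC6 (0.60), DDB1 (0.56), PARP1 (0.45), REV1 (0.36) and REV3L (0.23), all higher, and NTHL1 (−0.63), lower. EIF5B, which overlaps the end of REV1, had 6349 to 7200 counts in WT control and 7891 to 9147 in ATRX_KO control libraries. In the DAXX series it had 5267 to 6140 in WT control and 3336 to 3983 in KO control libraries. These counts are not scaled by library totals. The part of EIF5B reads in the REV1 values was not tested. In DAXX_KO, PARP2 (−0.68), ERCC8 (−0.49), TDG (−0.46), POLK (−0.44), MSH6 (−0.34), LIG3 (−0.30) and RAD23B (−0.23) were lower and PMS2 (0.50) was higher. PMS2CL, the near copy of PMS2, stood at 1.08 in the same comparison. The members called in neither line (XPA, ERCC2, ERCC3, ERCC4, OGG1, NEIL1, UNG, MPG, XRCC1, POLI) lay between −0.30 and 0.41.

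Some of these differences run along with their chromosomal neighbours. For each member, the median log2 fold change of up to 30 tested genes on each side was taken. In DAXX_KO it was −0.44 around ERCC8, −0.39 around POLK and 0.54 around NEIL3, near the genes' own −0.49, −0.44 and 0.45. The NEIL3 value in DAXX_KO did not pass the test (adjusted p = 0.144). The median was 0.33 around PMS2 and −0.27 around MSH6 in DAXX_KO. Around MSH3 it was −0.21 in DAXX_KO and 0.10 in ATRX_KO, smaller in size than the gene's own −0.48 and 0.28. In ATRX_KO it was −0.33 around POLB and −0.31 around NEIL2, less than the genes' own −0.58 and −0.69. The neighbours of ERCC1 stood at 0.05 in DAXX_KO and 0.17 in ATRX_KO, and those of DDB2 at 0.14 and 0.03. Those of ERCC5 stood at −0.40 in DAXX_KO, where 34 were lower and 5 higher, and at −0.04 in ATRX_KO. These medians lay away from the genes' own values. PARP1 of ATRX_KO was higher by 0.45 where its neighbours stood at −0.32. Of the 14 proliferation genes 12 were lower in DAXX_KO and 9 in ATRX_KO, and of the 12 p53 targets 5 were higher and 3 lower in DAXX_KO and 6 higher and 0 lower in ATRX_KO. Among all genes tested, 26.7% were higher and 26.6% lower in DAXX_KO, and 20.8% and 21.0% in ATRX_KO. The part of a segment, of proliferation or of p53 in these results was not tested.

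With 1 library of the DAXX series left out in turn, the calls of ERCC8 without WT control 2, KO control 2 or 3 (highest adjusted p = 0.102), POLB without WT control 3, KO control 1 (highest adjusted p = 0.0805), RAD23B without WT control 1 (highest adjusted p = 0.0557), PMS2 without KO control 3 (highest adjusted p = 0.0783), SMUG1 without WT control 3 (highest adjusted p = 0.0937), DDB2 without WT control 1 (highest adjusted p = 0.0537) and NEIL2 without KO control 1 (highest adjusted p = 0.0596) were lost. In the ATRX series the calls of REV3L without WT control 3, KO control 1 (highest adjusted p = 0.082), NTHL1 without WT control 1 or 2 or 3, KO control 1 or 2 (highest adjusted p = 0.116), APEX1 without WT control 1, KO control 1 or 2 (highest adjusted p = 0.113), SMUG1 without WT control 1 or 3, KO control 1 or 2 or 3 (highest adjusted p = 0.0974) and MUTYH without WT control 1 or 3, WT etoposide 1, KO control 1 or 3, KO etoposide 2 or 3 (highest adjusted p = 0.196) were lost. A different setting ended the calls of LIG3 (DAXX series, library totals alone, adjusted p = 0.231), ERCC8 (DAXX series, library totals alone, adjusted p = 0.151), RAD23B (DAXX series, library totals alone, adjusted p = 0.638), DDB2 (DAXX series, library totals alone, adjusted p = 0.402), TDG (DAXX series, library totals alone, adjusted p = 0.0718), SMUG1 (ATRX series, DESeq2 and no filter, highest adjusted p = 0.12), NTHL1 (ATRX series, library totals alone and a replicate block, highest adjusted p = 0.0549), MUTYH (ATRX series, library totals alone, a replicate block and the compared groups alone, highest adjusted p = 0.0673) and REV3L (ATRX series, no filter, adjusted p = 0.0913).

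Both KO lines responded to etoposide, with XPC, DDB2, TDG and POLH rising and PARP1, PARP2, MSH3 and MSH6 falling in each. In DAXX_KO 8 members rose and 15 fell (median −0.26; 26.8% and 27.8% of all genes), and in ATRX_KO 8 rose and 15 fell (median −0.08; 24.3% and 25.2%). Of the 23 called in each line, 20 were shared (87.0% of either list): XPC, DDB2, ERCC6, SMUG1, TDG, POLB and POLH rose in both, RAD23B, XPA, ERCC5, OGG1, NEIL2, NEIL3, UNG, XRCC1, PARP1, PARP2, MSH3, MSH6 and REV1 fell in both, and 0 moved in opposite directions. DDB1, APEX1 and REV3L were called in DAXX_KO alone and ERCC4, NTHL1 and LIG3 in ATRX_KO alone. For XPC the response of the DAXX_KO line was 2.00 ± 0.093 (adjusted p = 1.08e-12) and that of ATRX_KO 1.57 ± 0.10 (adjusted p = 7.87e-10). DDB2 gave 2.65 ± 0.075 (adjusted p = 7.07e-16) and 2.14 ± 0.087 (adjusted p = 4.99e-12). POLH gave 1.32 ± 0.15 (adjusted p = 3.41e-07) and 1.18 ± 0.11 (adjusted p = 2.14e-07). With 1 library of the DAXX series left out, the call of SMUG1 without KO etoposide 1 (highest adjusted p = 0.0506) was lost. In the ATRX series the calls of LIG3 without KO control 1, KO etoposide 2 (highest adjusted p = 0.109), POLB without WT control 1, WT etoposide 1 or 2 or 3, KO control 1 or 2, KO etoposide 1 (highest adjusted p = 0.234), SMUG1 without KO control 1 or 2 or 3, KO etoposide 1 or 3 (highest adjusted p = 0.148) and ERCC6 without KO etoposide 2 (highest adjusted p = 0.0654) were lost. Other settings ended the calls of SMUG1 (DAXX series, library totals alone, adjusted p = 0.0707), LIG3 (ATRX series, library totals alone, 10 counts in every library and the compared groups alone, highest adjusted p = 0.0646), POLB (ATRX series, no filter, a replicate block and the compared groups alone, highest adjusted p = 0.0863) and SMUG1 (ATRX series, no filter and the compared groups alone, highest adjusted p = 0.212).

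Whether the response differed between KO and WT was tested as an interaction, the KO response minus the WT response on the log2 scale. In the DAXX series 1 member was higher and 2 were lower (median 0.00; 8.38% and 5.79% of all genes), and in the ATRX series 4 were higher and 4 lower (median −0.02; 8.36% and 7.64%). Of the 3 members called in the DAXX series, all 3 were among the 8 called in the ATRX series (37.5% of that list), each with the same direction: MSH6 higher, and XPC and REV3L lower. For the other 29 members no difference passed the test in either series, which does not show that they responded alike.

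**Figure D4:**
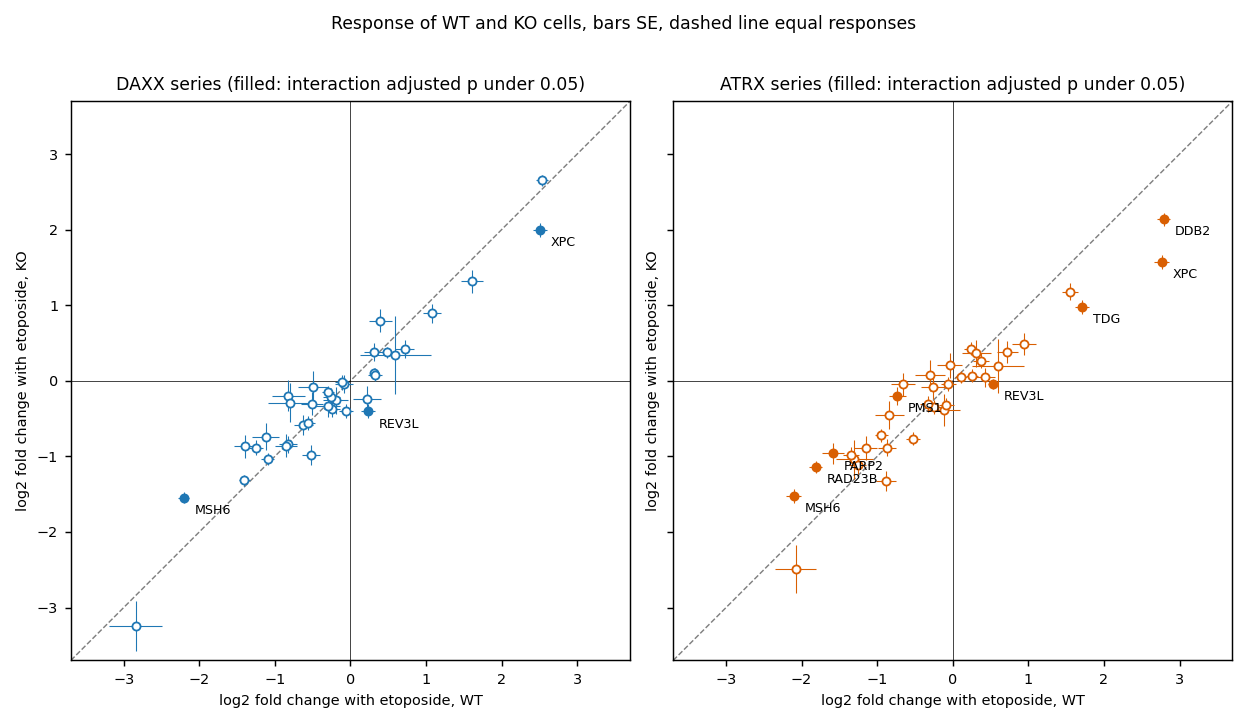
Log2 fold change of etoposide over control in KO cells (vertical) against WT cells (horizontal) for the 37 tested members, for the DAXX and ATRX series, with a line of equal response and filled points where the interaction passed an adjusted p of 0.05. XPC lies below the line and MSH6 above it in both panels.

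XPC rose less in the KO lines. In the DAXX_KO control and etoposide libraries it stood at 47.6, 42.0 and 45.4 and 168, 193 and 178 CPM, and the interaction was −0.51 ± 0.13 (adjusted p = 0.0119). In ATRX_KO the libraries read 57.1, 56.7 and 48.4 and 142, 180.3 and 159 CPM, and the interaction was −1.20 ± 0.13 (adjusted p = 2.65e-05). XPC started higher in ATRX_KO and ended lower than in WT. REV3L, which rose in WT, fell in DAXX_KO (−0.40 ± 0.091, adjusted p = 8.82e-04) and stood at −0.04 ± 0.071 (adjusted p = 0.665) in ATRX_KO. REV3L went from 51.4, 49.5 and 59.5 to 60.7, 58.2 and 69.6 CPM in WT and from 63.2, 61.0 and 57.0 to 43.1, 48.5 and 45.1 CPM in DAXX_KO, an interaction of −0.64 ± 0.13 (adjusted p = 0.00214). REV3L in the ATRX series went from 50.9, 51.2 and 47.4 to 71.2, 74.6 and 70.2 CPM in WT and from 60.4, 57.6 and 57.2 to 56.6, 57.4 and 56.2 CPM in ATRX_KO, an interaction of −0.57 ± 0.10 (adjusted p = 0.00116). MSH6 fell less in the KO lines. MSH6 went from 145, 144 and 139 to 49.6, 47.7 and 49.4 CPM in DAXX_KO, an interaction of 0.66 ± 0.10 (adjusted p = 1.72e-04). MSH6 in ATRX_KO went from 164, 175 and 141 to 50.9, 62.1 and 53.7 CPM, an interaction of 0.59 ± 0.13 (adjusted p = 0.00527).

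The other 5 interactions were called in the ATRX series alone, and a difference between the series was not tested for them. TDG went from 30.3, 34.3 and 28.8 to 54.8, 64.5 and 64.5 CPM in ATRX_KO, an interaction of −0.73 ± 0.13 (adjusted p = 0.00113), so it rose less than in WT. RAD23B went from 235, 237 and 276 to 123, 109.7 and 106 CPM, an interaction of 0.67 ± 0.12 (adjusted p = 0.00105), so it fell less. DDB2 went from 56.6, 61.6 and 48.7 to 259.6, 236 and 239 CPM, an interaction of −0.65 ± 0.12 (adjusted p = 0.00154), and in DAXX_KO from 63.6, 61.4 and 61.6 to 411, 365 and 399 CPM, an interaction of 0.12 ± 0.10 (adjusted p = 0.486). PARP2 (0.62 ± 0.20, adjusted p = 0.0446) fell less in ATRX_KO, and PMS1 had a term of 0.53 ± 0.16 (adjusted p = 0.032) with a KO response of −0.20 (adjusted p = 0.159) that did not pass the test. In DAXX_KO the same terms read TDG −0.19, RAD23B 0.09, PARP2 0.53 and PMS1 0.21. Of the 12 p53 targets outside the members, 9 had a lower interaction in the DAXX series (median −0.86) and 10 in the ATRX series (median −1.29). Among all genes tested, 5.79% and 7.64% had a lower interaction. The summed level of these targets under etoposide was 12827 to 13663 CPM in DAXX_KO against 12571 to 12768 CPM in the WT of that series. In ATRX_KO the sum was 8914 to 9704 CPM against 13016 to 13270 CPM in the WT of that series. The part of these targets in these members' values was not tested. With 1 ATRX series library left out, the calls of PMS1 without WT control 1 or 3, WT etoposide 1 or 3, KO control 1 or 2, KO etoposide 1 (highest adjusted p = 0.0773) and PARP2 without WT control 1 or 2 or 3, WT etoposide 1 or 3, KO control 1 or 2, KO etoposide 2 (highest adjusted p = 0.111) were lost. Of the other settings, 1 ended the call of PMS1 (ATRX series, no filter, adjusted p = 0.078).

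Under etoposide the KO lines were compared with WT directly. In DAXX_KO 8 members were higher and 12 lower (median −0.15; 27.9% and 25.2% of all genes), and in ATRX_KO 9 were higher and 9 lower (median −0.07; 23.0% and 22.9%), or 13 higher and 8 lower under library totals alone. UNG, PARP1 and MSH6 were higher in both lines and XPC, ERCC1, TDG, POLH and REV3L lower in both, while ERCC5, NEIL2 and MSH3 moved in opposite directions. The lower members include XPC, at −0.61 ± 0.084 (adjusted p = 5.34e-06) for the DAXX_KO line and −0.68 ± 0.091 (adjusted p = 1.09e-05) for ATRX_KO. ERCC1 stood at −1.11 ± 0.067 (adjusted p = 8.33e-11) and −0.72 ± 0.084 (adjusted p = 2.52e-06), and TDG at −0.64 ± 0.11 (adjusted p = 5.95e-05) and −0.67 ± 0.086 (adjusted p = 6.95e-06). POLH read 25.3, 24.4 and 28.9 CPM in the DAXX_KO and 21.3, 19.6 and 20.1 CPM in the ATRX_KO etoposide libraries, −0.35 ± 0.13 (adjusted p = 0.029) and −0.92 ± 0.10 (adjusted p = 1.59e-06) against WT. Its lower level in ATRX_KO was thus present before treatment as well. PARP1 stood at 0.35 ± 0.10 (adjusted p = 0.0066) and 0.59 ± 0.12 (adjusted p = 4.57e-04). DDB2 was lower in ATRX_KO (−1.08 ± 0.082, adjusted p = 1.82e-08) and stood at −0.14 ± 0.067 (adjusted p = 0.0787) in DAXX_KO. Called in DAXX_KO alone were ERCC8, ERCC4, APEX1, PMS1 and POLK, lower, and ERCC2, NTHL1, SMUG1 and PMS2, higher. Called in ATRX_KO alone were NEIL3 and POLB with DDB2, lower, and RAD23B, PARP2, POLI and REV1, higher. With 1 library left out, the calls of ERCC8 without WT etoposide 2 or 3, KO etoposide 1 or 3 (highest adjusted p = 0.0672), PMS1 without WT etoposide 1 or 3, KO etoposide 1 or 3 (highest adjusted p = 0.151), NTHL1 without WT etoposide 1 or 2 or 3, KO etoposide 3 (highest adjusted p = 0.229), UNG without WT control 2, WT etoposide 1 or 2 or 3, KO etoposide 1 or 3 (highest adjusted p = 0.211), PMS2 without WT etoposide 3, KO etoposide 1 (highest adjusted p = 0.0656), ERCC5 without WT control 1, WT etoposide 1 or 2 or 3, KO control 1 or 2, KO etoposide 1 or 3 (highest adjusted p = 0.238), NEIL2 without WT etoposide 1 or 2, KO etoposide 1 or 3 (highest adjusted p = 0.113), POLH without WT etoposide 1 or 3, KO etoposide 1 or 2 (highest adjusted p = 0.134) and ERCC4 without WT etoposide 1 (highest adjusted p = 0.0595) were lost. In the ATRX series the calls of POLI without WT control 1 or 2 or 3, WT etoposide 1 or 2, KO etoposide 1 or 3 (highest adjusted p = 0.118), PARP2 without WT etoposide 1, KO etoposide 2 (highest adjusted p = 0.112), REV1 without WT etoposide 1 or 3, KO etoposide 2 (highest adjusted p = 0.0767) and NEIL2 without WT etoposide 1 or 2 or 3, KO etoposide 1 or 2 (highest adjusted p = 0.162) were lost. Another setting ended the calls of NTHL1 (DAXX series, DESeq2, adjusted p = 0.0503), UNG (DAXX series, DESeq2, RLE factors, no filter, 10 counts in every library, a replicate block, 24 libraries in one model and the compared groups alone, highest adjusted p = 0.12), PMS2 (DAXX series, DESeq2 and no filter, highest adjusted p = 0.065), PMS1 (DAXX series, library totals alone, adjusted p = 0.0798), ERCC5 (DAXX series, library totals alone, a replicate block, 24 libraries in one model and the compared groups alone, highest adjusted p = 0.175), POLH (DAXX series, library totals alone, adjusted p = 0.0762), ERCC4 (DAXX series, library totals alone, adjusted p = 0.0549), POLI (ATRX series, DESeq2 and no filter, highest adjusted p = 0.0825), NEIL2 (ATRX series, library totals alone and the compared groups alone, highest adjusted p = 0.106), REV1 (ATRX series, no filter, adjusted p = 0.0548) and PARP2 (ATRX series, the compared groups alone, adjusted p = 0.0547).

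The KO effects in untreated cells were compared between the lines in 1 model of all 24 libraries, each KO against the WT libraries of its own series. Relative to ATRX_KO, DAXX_KO was higher in 4 members and lower in 13 (median −0.10; 17.0% and 17.2% of all genes), or 6 higher and 5 lower under library totals alone. The smallest adjusted p-values were those of ERCC5 (−0.95 ± 0.13, adjusted p = 3.22e-06), MSH3 (−0.76 ± 0.11, adjusted p = 8.82e-06) and NEIL2 (1.05 ± 0.19, adjusted p = 7.63e-05), whose libraries are given with the KO effects. The other members higher in DAXX_KO were NEIL3 (1.56), POLB (0.98) and PMS2 (0.72). The other members lower were ERCC6 (−0.66), XPC (−0.61), REV1 (−0.59), DDB1 (−0.58), TDG (−0.51), PARP2 (−0.50), PARP1 (−0.46), LIG3 (−0.42), POLK (−0.40), ERCC1 (−0.36) and MSH6 (−0.28). ERCC1, although lower in both lines, was thus lower by more in DAXX_KO. Reads at the ends of REV1, LIG3 and MSH6 cannot be told apart from those of the genes that overlap them. With 1 library left out, the calls of MSH6 without DAXX series WT control 3, DAXX series KO control 1 or 2 or 3, ATRX series WT control 1, ATRX series KO control 1 or 2 (highest adjusted p = 0.112), PARP2 without DAXX series WT control 1 or 2, DAXX series KO control 2 or 3, ATRX series WT control 1 or 2 or 3, ATRX series KO control 3 (highest adjusted p = 0.133), TDG without DAXX series KO control 3 (highest adjusted p = 0.0686), PARP1 without DAXX series WT control 3, DAXX series KO control 3 (highest adjusted p = 0.0666) and ERCC6 without DAXX series WT control 2, DAXX series KO control 1, ATRX series WT control 3, ATRX series KO control 1 (highest adjusted p = 0.0611) were lost. A change of setting ended the calls of LIG3 (library totals alone, adjusted p = 0.0595), ERCC1 (library totals alone, adjusted p = 0.0891), MSH6 (library totals alone and no filter, highest adjusted p = 0.27), POLK (library totals alone, adjusted p = 0.0764), PARP2 (library totals alone, adjusted p = 0.132), TDG (library totals alone, adjusted p = 0.0665), PARP1 (library totals alone, adjusted p = 0.0847), ERCC6 (library totals alone, adjusted p = 0.0723) and PMS2 (no filter, adjusted p = 0.0535).

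Of 41 further genes of these pathways, 40 were tested in the DAXX series, and in WT cells 10 rose and 19 fell with etoposide there and 8 rose and 19 fell in the ATRX series. Of all genes tested, 29.6% rose and 30.6% fell in the former and 31.7% and 29.8% in the latter. In nucleotide excision repair RPA1, a subunit that coats single strands, fell (−1.60 and −1.85), and in base excision repair FEN1, the flap nuclease, fell by more (−3.07 and −2.65), while APTX, which removes abortive ligation ends, rose (0.89 and 0.94). Both EXO1 (−1.42 and −1.06) and MLH3 (−0.44 and −0.46) of mismatch repair fell. Of 12 other damage tolerance genes 8 fell in each series, and 1 and 2 rose. USP1, the deubiquitinase of PCNA, stood at −2.68 and −2.91 and RAD18, a ligase acting on PCNA, at −1.88 and −1.60. Without etoposide, 10 were higher and 14 lower in DAXX_KO (17 and 9 under library totals alone) and 7 higher and 7 lower in ATRX_KO, where 26.7% and 26.6% of all genes tested were higher and lower in DAXX_KO and 20.8% and 21.0% in ATRX_KO. The count that rose in the DAXX series dropped to 5 without WT etoposide 1, and the count lower in ATRX_KO to 4 without WT control 2. CUL4B, a scaffold of the ubiquitin ligase that DDB1 and DDB2 belong to, was higher in both (1.55 and 0.62), as was APLF, which binds poly(ADP-ribose) (2.52 and 2.75). RAD18 stood at −0.84 and −0.22.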

How the data were processed

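The authors sequenced QuantSeq 3′ mRNA libraries of polyA RNA, aligned the reads with STAR and estimated gene counts with RSEM (version 1.2.3 per the labels) against hg19 with Ensembl GRCh37 genes. The deposited values are expected counts per gene for 24 libraries, here whole numbers. A step rounding to whole numbers was still run before testing. The strand setting of the counting is not given in the sources used here. Because reads come from 3′ ends, counts follow transcript number and were not divided by length, and levels were not compared between genes.

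Counts were tested with edgeR 4.0.16 (R 4.3.3) by its quasi-likelihood test, with filterByExpr (minimum count 10, total 15), TMM factors (0.939 to 1.10 for DAXX libraries, 0.954 to 1.07 for ATRX libraries) and the 12 libraries of a series in 1 model of 4 groups. The DAXX fit held 15247 genes and the ATRX fit 16371. The KO effects were set against each other in a model of 24 libraries and 16674 genes. Adjusted p-values are Benjamini-Hochberg values over all genes tested, two-sided, called at 0.05, and standard errors are the log2 fold change divided by the square root of F. CPM use the library total over the genes kept in the fit of that series, multiplied by the TMM factor. The steps were tested on simulated counts. Alternatives were DESeq2 1.42.0, RLE factors, library totals alone, no filter, at least 10 counts in every library, a replicate block, 24 libraries in 1 model, the compared groups alone and leaving out each library.

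The replicate numbers do not pair the libraries: over 36 comparisons, the deviations of same-numbered libraries correlated between −0.216 and 0.049. Replicate pairs differed by more than counting noise (chi-square per degree of freedom 2.16 to 17.1 over 24 pairs). The members and the other gene lists were chosen with earlier results of these data known. Values in every library are given for the targeted genes, for DDB2, XPC and POLH, and for up to 2 members per role called in both series with the largest change, up to 3 per interaction and 3 for the difference of the KO effects. GENCODE 44 lifted to GRCh37 gave positions and symbols (55501 of 57736 identifiers matched), and RefSeq (GRCh38.p14) gave promoter windows, with no conversion between builds. PECAM1 was not matched by symbol.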

Additional observations from a re-analysis of the deposited data

Results flagged for a closer look

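In the DAXX series the etoposide response of the KO line differed from that of WT by the interaction test for MSH6 (0.66), REV3L (−0.64) and XPC (−0.51), as KO response minus WT response on the log2 scale. In the ATRX series it differed for XPC (−1.20), TDG (−0.73), DDB2 (−0.65) and REV3L (−0.57), which had the smaller value in KO, and for RAD23B (0.67), PARP2 (0.62), MSH6 (0.59) and PMS1 (0.53), which had the larger.

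The effect of KO on untreated cells differed between the lines by the test of that difference, as DAXX_KO minus ATRX_KO on the log2 scale. The values above 0 were NEIL3 (1.56), NEIL2 (1.05), POLB (0.98) and PMS2 (0.72). Those below 0 were ERCC5 (−0.95), MSH3 (−0.76), ERCC6 (−0.66), XPC (−0.61), REV1 (−0.59), DDB1 (−0.58), TDG (−0.51), PARP2 (−0.50), PARP1 (−0.46), LIG3 (−0.42), POLK (−0.40), ERCC1 (−0.36) and MSH6 (−0.28). No group was large enough to test a single library as an outlier, since each holds 3.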

How the results depend on the processing

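Of 4232 values of named calls under another setting or with 1 library left out, 3996 kept their direction and call, 236 kept their direction and lost the call, and 0 changed direction. Of 204 calls, 151 were never lost, 47 were lost without at least 1 library and 41 under at least 1 other setting. A call whose gene was filtered out of a setting was not scored there and does not count as lost. With at least 10 counts required in every library, 193 calls were kept and 4 lost, and the remaining calls were not tested.

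Counts of members moved as follows. Scaled by library totals alone, DAXX_KO against WT in control cells gave 10 higher and 8 lower (4 and 13 with TMM), the DAXX interaction gave 4 lower (2), and the difference between the KO effects gave 5 lower (13). This scaling moved the median of all genes by 0.18, −0.11 and 0.12 in those comparisons. DESeq2 gave 5 higher in DAXX_KO against WT under etoposide (8), and no filter on low counts gave 2 higher in the DAXX interaction (1). Beyond each setting's own construction, the cause was not tested.

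With each library left out in turn, the members higher and lower ranged as follows. DAXX series: KO in control 2 to 5 and 11 to 13, WT response 8 to 11 and 16 to 19, KO response 7 to 8 and 15 to 16, KO under etoposide 5 to 9 and 8 to 12, interaction 1 to 2 and 2 to 4. ATRX series: KO in control 7 to 9 and 7 to 11, WT response 9 to 11 and 16 to 17, KO response 6 to 8 and 14 to 16, KO under etoposide 6 to 10 and 8 to 9, interaction 2 to 6 and 4 to 5. Difference between the KO effects: 4 to 6 and 10 to 13. Single libraries moved 5 counts by over 1.5 times. Higher under etoposide in DAXX_KO fell to 5 without WT etoposide 1 or 2 or KO etoposide 1 or 3. Higher in DAXX_KO control fell to 2 without KO control 1. The DAXX interaction rose to 2 higher without WT etoposide 2 or KO control 1, and to 4 lower without KO etoposide 2. The ATRX interaction fell to 2 higher without WT control 1 or 3, WT etoposide 1 or 3, or KO control 1 or 2.

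A replicate block, although the numbers do not pair the libraries, kept 199 of the 204 calls. The other 5 kept their direction: UNG (0.23, adjusted p = 0.0513) and ERCC5 (−0.23, adjusted p = 0.0581) in DAXX_KO under etoposide, NTHL1 (−0.63, adjusted p = 0.0509) and MUTYH (−0.53, adjusted p = 0.0647) in ATRX_KO control, and POLB (0.37, adjusted p = 0.0551) in the ATRX_KO response. With the block, members higher and lower were 7 and 11 in DAXX_KO under etoposide and 9 and 8 in ATRX_KO control. MGMT, with at most 5 counts in any library, could not be tested at this depth.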
